A study of Mus musculus with 14 samples.

Results

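Open chromatin regions of the mouse genome that lie between genes and more than 5 kb from the nearest protein-coding gene were examined in 14 ATAC-seq libraries of sorted bone marrow stem and progenitor cells. ATAC-seq uses a transposase to insert sequencing adapters into accessible DNA, so the signal of a region reports how open it is. A region was included when it lay on chromosomes 1 to 19, had a mean deposited signal of at least 100 over the 14 libraries, overlapped no RefSeq protein-coding gene and was more than 5 kb from the nearest one. This rule gave 3754 intergenic distal regions out of 25129 regions at that signal level and 705361 regions in all. The choice used position and overall level, not any difference between groups. Since the level is a mean over all libraries, a region low in some groups could enter through those where it was high.

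The libraries came from LT-HSC, the long-term haematopoietic stem cells that maintain the blood system, and from MPP3 cells, a multipotent progenitor population with a bias towards myeloid cells. Each cell type gave 7 libraries. Donor marrow was of C57BL/6J background and had 1 of 4 genotypes. WT marrow carried Mx-Cre. Dnmt3a marrow carried the allele Dnmt3a-flR878H/+, Npm1 marrow carried Npm1-frt/+, and Dnmt3a;Npm1 marrow carried both alleles. The sample titles name the Npm1 allele Npm1c. Into each irradiated CD45.1 host went 1000000 marrow cells, and all hosts then received poly(I:C) after 4 weeks, tamoxifen after a further 4 weeks and were sampled 4 weeks later, so the WT controls carry the same transplant, poly(I:C) and tamoxifen history. Mx-Cre places Cre under the interferon-responsive Mx1 promoter. The labels name Mx-Cre for the WT genotype only and do not say which recombinase acts on the frt allele, whether host cells were removed in the sort, or whether the libraries of a group stem from different mice. The p-values therefore speak only to variation among libraries, which may be technical. Of the 8 groups, 6 held 2 libraries. The exceptions, with 1 library each, were Dnmt3a among LT-HSC and Dnmt3a;Npm1 among MPP3.

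Open regions far from genes are mostly enhancers, stretches of DNA that bind transcription factors and act on promoters over a distance, together with insulators, promoters of non-coding RNAs and repeats that attract signal for other reasons. In blood formation, enhancers are more specific to a cell type than promoters are, and factors such as PU.1, RUNX1, GATA2 and C/EBP proteins open and close them as stem cells become progenitors. Each region is called below by its nearest protein-coding gene, which says where it lies and not which gene it acts on. In a bulk library a lower value cannot be told apart from a smaller share of cells in which the region is open.

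The intergenic distal regions were weaker and narrower than regions at genes, most of all those at gene ends. Their median width was 1157 bp (308 to 6271 bp), against 1511 bp for the 11913 regions within 1 kb of either end of a protein-coding gene (gene-end regions) and 1296 bp for the 7844 regions deeper inside genes. Their median mean signal was 144, against 303 and 152. Intergenic regions within 5 kb of a gene were close to them, with a median width of 1166.5 bp and a median signal of 150. The signal fell below 200 in 2762 of the distal regions (73.6%). The distance to the nearest protein-coding gene had a median of 23150 bp, with 1678 regions within 20 kb, 1620 from there to 100 kb and 456 beyond. The region farthest out lay 1411493 bp from Cntnap5b. They had 2266 different nearest genes, with at most 15 regions to a gene. Chromosome 2 held the most, 335, and chromosome 14 the fewest, 109. The regions nearest to the limits were 5015, 5042 and 5044 bp from a gene on the inside and 4987, 4983 and 4983 bp on the outside, and had mean signals of 100 inside and 99.9 outside.

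Non-coding genes were common among them. The regions overlapped an annotated lncRNA gene in 1160 cases, a pseudogene in 53, a microRNA gene in 10 and an antigen receptor segment in 4, while 2483 overlapped no RefSeq gene of any kind. Because these genes are not protein-coding, known RNA loci qualified. The let-7i microRNA gene, for example, lay in a region 5334 bp from Mon2 (chr10:122985138-122986726). Whole lncRNA promoter windows, the 300 bases from 250 before to 50 after the annotated start, lay inside 264 regions and numbered 302.

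The sequences below are RefSeq sequences of build mm10 (GRCm38.p6) for promoter windows inside named regions, chosen after values were seen. They are written 5′ to 3′ on the strand of the gene, with matches to the searched motifs in capitals. The Gm35131 window (chr11:31727029-31727328, minus strand) lies in the region near Bod1, where the difference between MPP3 and LT-HSC was -0.92 (SE 0.20, limma adjusted p = 0.0526) and did not pass the test. The 1300002E11Rik window (chr16:21794097-21794396, plus strand) and the 1700113A16Rik window (chr3:88177736-88178035, minus strand) lie in regions near Ehhadh and Mef2d that fell in Npm1 LT-HSC. The mature let-7i strand is given with its seed, bases 2 to 8, in capitals.
Gm35131: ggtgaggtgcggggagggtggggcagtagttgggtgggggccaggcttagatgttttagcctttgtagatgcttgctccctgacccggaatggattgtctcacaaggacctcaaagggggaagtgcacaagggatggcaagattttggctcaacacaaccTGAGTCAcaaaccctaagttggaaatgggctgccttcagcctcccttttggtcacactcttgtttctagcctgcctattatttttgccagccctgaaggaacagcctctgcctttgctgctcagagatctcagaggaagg
1300002E11Rik: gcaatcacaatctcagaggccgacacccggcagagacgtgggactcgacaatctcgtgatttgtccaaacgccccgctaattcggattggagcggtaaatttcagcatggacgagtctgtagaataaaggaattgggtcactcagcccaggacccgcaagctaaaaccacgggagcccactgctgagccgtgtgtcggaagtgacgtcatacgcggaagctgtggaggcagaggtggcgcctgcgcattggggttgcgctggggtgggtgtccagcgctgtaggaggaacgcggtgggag
1700113A16Rik: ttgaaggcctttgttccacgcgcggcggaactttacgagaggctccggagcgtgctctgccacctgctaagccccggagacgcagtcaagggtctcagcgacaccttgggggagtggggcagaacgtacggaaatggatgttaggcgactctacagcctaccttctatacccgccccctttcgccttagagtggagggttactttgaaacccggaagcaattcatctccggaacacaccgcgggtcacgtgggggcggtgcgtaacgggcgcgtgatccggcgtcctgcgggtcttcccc
mmu-let-7i-5p: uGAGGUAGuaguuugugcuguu

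The capitals mark 1 AP-1 match in the Gm35131 window; the other two windows held no match to any of the 8 motifs. The 1300002E11Rik and 1700113A16Rik windows held 23 and 28 CpG dinucleotides, against 2 in the Gm35131 window. Over the 302 windows inside intergenic distal regions, the median GC content was 55.0%, against 48.3% over all 11587 lncRNA windows of the table. On both strands, the PU.1-type ETS motif GAGGAAGT was present in 7.62% of the 302 windows and 3.33% of all, the C/EBP motif TTGCNNAA in 14.6% and 12.0%, the AP-1 motif (TGA, any base, TCA) in 11.9% and 9.31%, and the RUNX motif TGTGGT in 63 of 302 and 2323 of 11587. The E-box CAGCTG was found in 18.5% and 17.7%, and the HOX with PBX motif TGATTNAT in 2.32% and 4.08%. The motif of GATA factors, which reads AGATAA, stood in 12.3% and 14.0%, and the IRF motif in 2.98% and 3.61%. The 302 windows lie in open regions, while the 11587 were taken whether open or not. Open lncRNA windows of other position classes were not compared, so these shares do not single out distal regions. Matches of different motifs may overlap, a match is not evidence of binding, and no window outside these promoters was searched.

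The libraries differed in how much of their signal lay in the 25129 tested regions, which bears on every comparison below. Shares here are of deposited signal summed over all 705361 regions, not of reads. The share of signal in all 25129 tested regions was 44.8% and 30.05% in LT-HSC WT, 19.5% and 15.7% in LT-HSC Npm1, and 22.3% to 51.6% in the 7 MPP3 libraries. The intergenic distal regions held 3.01% to 4.91% of the signal of LT-HSC libraries and 3.53% to 5.71% of MPP3 libraries. A large part of this came from 8 regions with a mean signal of at least 2000, which held 0.734% to 1.86% of the signal. The 3 libraries with the highest share in those 8 regions, both LT-HSC Npm1 libraries (1.86% and 1.36%) and MPP3 Dnmt3a replicate A (1.76%), were also the 3 with the lowest share in tested regions. The strongest of the 8 was the region over Rn18s-rs5, a copy of the 18S ribosomal RNA sequence (chr17:39842810-39849081), with a mean of 85225. The region at chr2:98665980-98667613, 1034308 bp from Lrrc4c, followed with a mean of 82134; its normalized values were 31746 and 66663 in LT-HSC WT, 365071 and 296628 for the LT-HSC Npm1 libraries and 261929 and 85792 for MPP3 Dnmt3a. Whether a list of problem regions was applied is not given in the sources used here. Normalized values are the deposited values divided by a library factor (trimmed mean of M values, TMM).

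**Figure D1:**
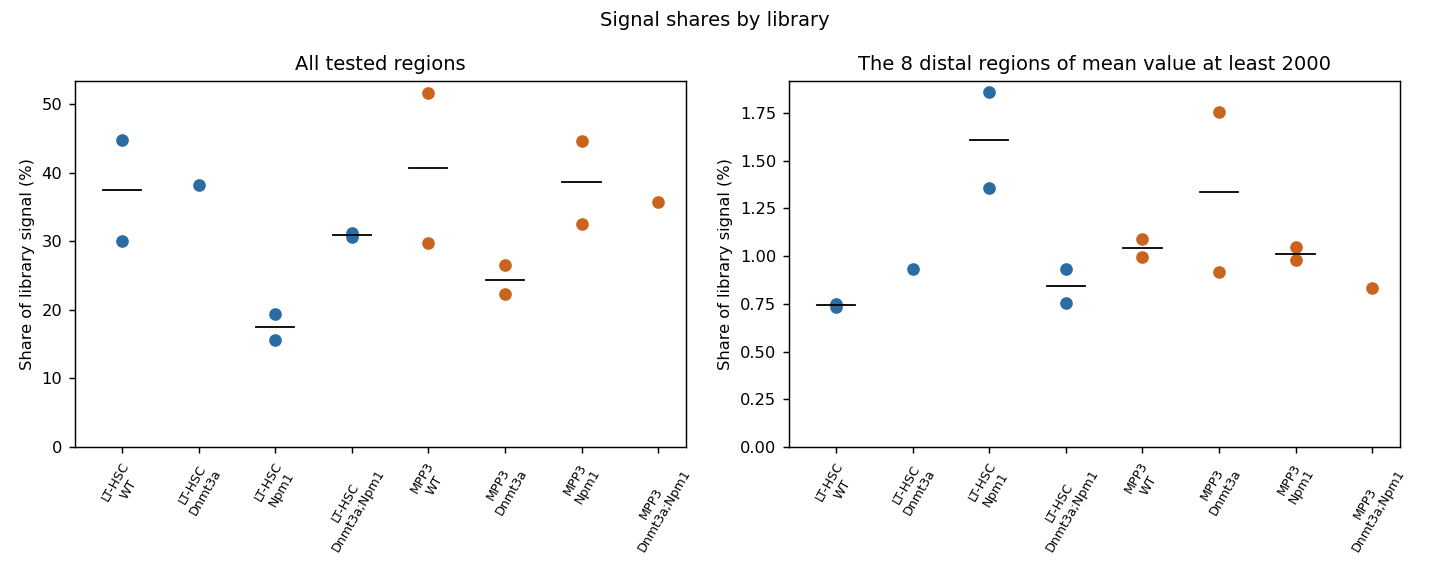
Share of library signal (%, vertical axes) in all 25129 tested regions (left) and in the 8 intergenic distal regions with a mean signal of at least 2000 (right), by group; each point is a library (blue LT-HSC, orange MPP3) and bars are means of 2 libraries. LT-HSC Npm1 is lowest on the left, at 19.5% and 15.7%, and its libraries stand at 1.86% and 1.36% on the right.

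MPP3 and LT-HSC were compared over all 4 genotypes to ask which distal regions mark the step from stem cell to progenitor. Of the 3754 regions, 36 passed the test (limma on log2 values, Benjamini-Hochberg adjusted p under 0.05), 28 higher and 8 lower in MPP3. This was 0.959% of them, against 0.41% of all tested regions. In the higher direction 0.746% were called against 0.243% of all tested, and in the lower direction 0.213% against 0.167%. The distal regions are 14.9% of tested regions and supplied 35.0% of all calls. Gene-end regions gave 13 calls (0.109%, 3 higher) and intragenic regions 45 (0.574%, 24 higher). The 1116 intergenic regions within 5 kb of a gene gave 9 (0.806%, 6 higher), a share close to that of the distal regions. The median log2 difference of all distal regions was 0.03, against 0.01 over all tested regions. The 7 libraries of one cell type lay wholly above those of the other in 38 regions for MPP3 (1.01%, against 0.446% of all tested regions) and in 20 for LT-HSC (0.533%, against 0.438%).

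**Figure D2:**
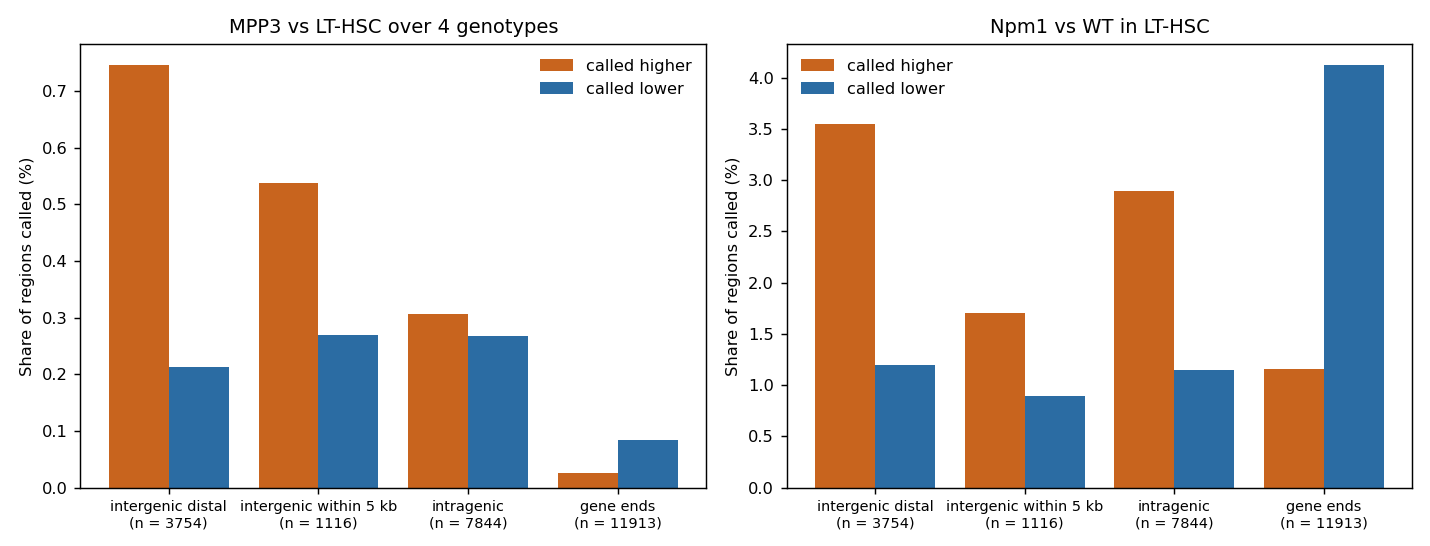
Share of regions called at an adjusted p under 0.05 (%, vertical axes) by position class, for MPP3 against LT-HSC over 4 genotypes (left) and Npm1 against WT in LT-HSC (right); orange bars are higher and blue bars lower. Intergenic distal regions had 28 higher and 8 lower calls on the left and 133 and 45 on the right, where gene-end regions had 138 higher and 491 lower.

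The difference of smallest p was a lower signal in MPP3 upstream of Nkx2-3, which encodes a homeodomain transcription factor. The region chr19:43598869-43601813, 10512 bp upstream of the gene, had normalized values of 374 to 555 (median 443) in LT-HSC and 109 to 209 (median 157) in MPP3. Every LT-HSC library stood above every MPP3 library. The log2 difference, MPP3 minus LT-HSC, was -1.54 (SE 0.18, limma adjusted p = 0.00169), and in WT cells alone it was -1.61 (SE 0.33). It was still called under all 18 other settings tried for it, including 12 that each left out a library. A second region 40552 bp upstream ran from 99.96 to 244 (median 175) in LT-HSC and 89.2 to 149.5 (median 103) in MPP3, with overlapping libraries and no call (log2 difference -0.57, SE 0.23, limma adjusted p = 0.249).

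The other 7 regions that fell lay near genes of several functions. Near Plpp7, of the phospholipid phosphatase family, the region chr2:32127661-32128883 had values of 169.9 to 298 (median 258) in LT-HSC and 63.2 to 151 (median 89.4) in MPP3, without overlap (log2 difference -1.37, SE 0.23, limma adjusted p = 0.02). Near Usp3, a deubiquitinase of histones, the values were 145 to 343 (median 214) and 44.2 to 113 (median 77.0), again without overlap (log2 difference -1.48, SE 0.27, limma adjusted p = 0.0258). Slc2a1 encodes the glucose transporter GLUT1, and a region 31100 bp upstream of it differed by -1.34 (SE 0.28). Tacc3, a mitotic spindle gene, differed by -0.98 (SE 0.21), Socs5, an inhibitor of cytokine signalling, by -0.81 (SE 0.16), Marchf5, a mitochondrial ubiquitin ligase gene, by -1.08 (SE 0.23) and 1700018B08Rik by -1.08 (SE 0.23). Their adjusted p values ran from 0.0352 to 0.0466. In 6 of the 8 lower regions, which were picked by this same comparison, the libraries of the cell types did not overlap.

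Regions that rose in MPP3 had a median log2 difference of 1.33. Near Pde4b, a phosphodiesterase that breaks down cyclic AMP, the region chr4:102623689-102625528 had values of 118 to 327 (median 144) in LT-HSC and 276 to 482 (median 445) in MPP3 (log2 difference 1.24, SE 0.21, limma adjusted p = 0.02). One LT-HSC library, Dnmt3a;Npm1 replicate B at 327, reached into the MPP3 range. Dusp6 encodes a phosphatase that switches off ERK signalling, and a region 191803 bp downstream of it had values of 82.9 to 204 (median 119) and 217 to 363 (median 275), with no overlap (log2 difference 1.15, SE 0.21, limma adjusted p = 0.0258).

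The smallest p among the higher regions was near Map3k7cl (chr16:87624684-87626182; log2 difference 1.96, SE 0.32, limma adjusted p = 0.0182). Its MPP3 values were 175 to 333 (median 197). Its LT-HSC values were 44.0 and 23.4 in WT, 39.7 in the Dnmt3a library, 223 and 137 in Npm1 and 57.5 and 12.5 in Dnmt3a;Npm1, so the Npm1 libraries were the highest of the stem cells, and Npm1 against WT, which shares these LT-HSC libraries, gave 2.30 (SE 0.57, limma adjusted p = 0.0288). Further calls lay near Gm9376 at 1.72 (SE 0.31), BC005537 at 1.52 (SE 0.29), Gm19345 at 1.25 (SE 0.23), Wsb1, a ubiquitin ligase adaptor gene, at 1.17 (SE 0.22), and AA467197 at 1.11 (SE 0.22). Of the 28 higher regions, 11 overlapped an lncRNA gene, beside 1160 of all 3754 distal regions. In 12 of the 28, which were picked by this same comparison, the libraries of the cell types did not overlap. By distance, 14 of the 1678 regions within 20 kb were called in either direction, 12 of the 1620 up to 100 kb and 10 of the 456 beyond 100 kb.

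**Figure D3:**
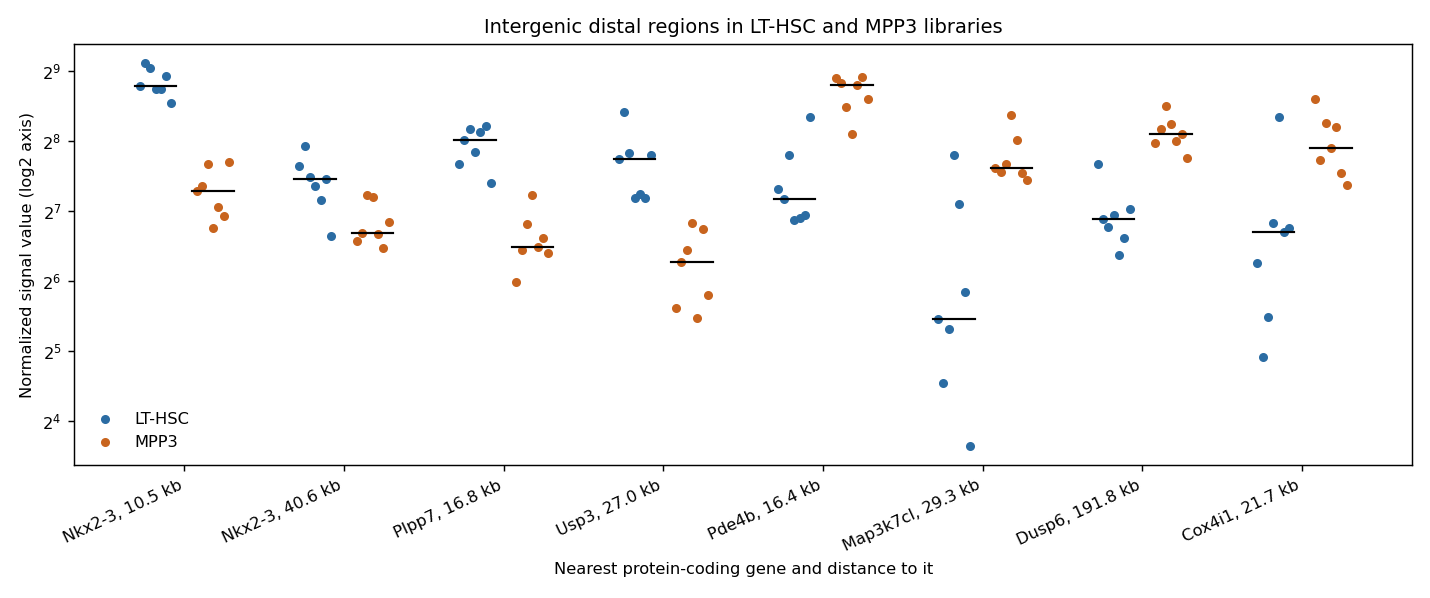
Normalized signal (log2 vertical axis) at 8 intergenic distal regions, labelled by nearest protein-coding gene and distance; each point is a library (blue LT-HSC, orange MPP3, 7 each) and bars are medians. LT-HSC values lie above all MPP3 values at Nkx2-3 (10512 bp), Plpp7 and Usp3, and below all of them at Dusp6; the Map3k7cl, Pde4b and Cox4i1 regions overlap in 1 or more libraries, as does the Nkx2-3 region at 40552 bp.

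With the share of signal in tested regions as a covariate, 9 of the 36 calls remained. The count of calls also moved with single libraries. Without LT-HSC Npm1 replicate A, MPP3 WT replicate A, MPP3 WT replicate B or MPP3 Npm1 replicate A, 1 region remained called. It was 3 without MPP3 Npm1 replicate B. Leaving out LT-HSC WT replicate B gave 10. Without LT-HSC WT replicate A, LT-HSC Npm1 replicate B or LT-HSC Dnmt3a;Npm1 replicate A the counts were 23, 22 and 55, and without MPP3 Dnmt3a replicate A or B they were 145 and 108. Within WT alone, with 2 libraries against 2, no distal region passed limma's adjusted test (0% of all tested regions), and 370 had an unadjusted p under 0.05 (9.86%, against 5.69% of all tested).

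The lists of blood genes, assigned by nearest gene, gave few calls, and the medians are descriptions of regions chosen with earlier results known. Regions of a list often share a nearest gene and may not be independent. Of all distal regions, 53.1% were higher in MPP3 and 0.959% were called, against 51.9% and 0.41% of all tested regions. Of 18 regions nearest to 12 stem cell identity genes, 13 were lower in MPP3 (median log2 difference -0.38, against 0.03 for all distal regions and 0.01 for all tested), and the Nkx2-3 region was the call. Others in the list that did not pass were upstream of Procr, which encodes the stem cell surface protein EPCR (log2 difference -0.83, SE 0.21, limma adjusted p = 0.078), and near Tcf15, whose product is a helix-loop-helix factor (log2 difference -1.03, SE 0.28, limma adjusted p = 0.097). Of 57 regions nearest to 19 genes of stem and progenitor transcription factors, 39 were higher in MPP3 (median 0.17) and 2 passed. These were a region 330743 bp downstream of Sox4, in the lncRNA gene 2610307P16Rik, with 9.16 to 192 (median 69.8) in LT-HSC and 155 to 242 (median 207) in MPP3 (log2 difference 1.56, SE 0.32, limma adjusted p = 0.0363), and a region 161853 bp upstream of Zeb2 with 29.0 to 94.4 (median 59.1) and 87.5 to 187 (median 156; log2 difference 1.37, SE 0.30, limma adjusted p = 0.0466). Zeb2 encodes a repressor needed for myeloid differentiation.

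Of 33 regions nearest to 12 myeloid genes, 20 were higher in MPP3 (median 0.13), beside 53.1% of all distal regions, and none passed. Their 3 smallest p values were near Cebpb, a C/EBP factor of granulocytes and macrophages (log2 difference 0.73, SE 0.18, limma adjusted p = 0.0712), Gfi1, a repressor in granulocyte development (log2 difference 1.04, SE 0.26, limma adjusted p = 0.0757), and Id2, an inhibitor of helix-loop-helix factors (log2 difference 0.76, SE 0.19, limma adjusted p = 0.0794). Lymphoid genes had 26 regions (11 genes, median 0.10, 15 higher) and erythroid and megakaryocyte genes 22 (8 genes, median 0.08, 13 higher), with no call in either. Among single loci, a region 32027 bp downstream of Cebpa (chr7:35153955-35158015), near where a myeloid enhancer of that gene is known to lie, had 273 to 472 (median 395) in LT-HSC and 337 to 634 (median 492) in MPP3 (log2 difference 0.42, SE 0.17, limma adjusted p = 0.255). No intergenic distal region lay within 100 kb of Spi1. The regions nearest to Meis1 differed by -0.56 (SE 0.25) at 8114 bp downstream and by 0.11 (SE 0.21) at 6901 bp upstream, and the region nearest to Gata2 by 0.25 (SE 0.32), none of them called.

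The labelled cell types were checked at regions in or within 5 kb of marker genes. Over 16 regions of LT-HSC markers the summed normalized signal was 2975 to 3893 in LT-HSC libraries and 2485 to 3145 in MPP3 libraries. Over 13 regions of MPP3 markers it was 1333 to 3028 in LT-HSC and 2553 to 4487 in MPP3. The LT-HSC range of the MPP3 markers reached 3028 through the Npm1 libraries (2892 and 3028); LT-HSC WT stood at 1535 and 1791, and 11 of the 13 regions were higher in Npm1 than in WT. Markers of B cells (2 of 5 genes with a region), T and NK cells (1 of 5), erythroid cells (2 of 5) and niche cells (2 of 5) had few tested regions. Of the T and NK cell markers, Cd3e, Cd8a, Klrb1c and Ncr1 had none within 5 kb, and of the niche markers Cxcl12, Lepr and Cdh5 had none. The summed signal of the listed regions was 695 to 1278 (B cell), 227 to 424 (T and NK cell), 452 to 792 (erythroid) and 336 to 898 (niche) in LT-HSC, and 573 to 751, 123 to 361, 445 to 587 and 417 to 942 in MPP3.

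The comparison of Npm1 with WT in LT-HSC asked what the Npm1 allele alone changes in stem cells, and it gave the most calls. Of the 3754 distal regions, 178 passed, 133 higher and 45 lower in Npm1, which is 4.74%, against 4.85% of all tested regions. The shares by direction were 3.54% higher, against 2.31% of all tested, and 1.2% lower, against 2.54%. The number called was near the background. By direction, 133 of the 178 calls were higher, against 138 of 629 at gene ends and 227 of 317 in intragenic regions. This balance depends on the scaling: with libraries scaled to their totals, 1316 distal regions were called, 53 of them higher, and the median of all tested regions moved to -1.14. By distance, 64 of 1678 distal regions within 20 kb of a gene were called, 72 of 1620 up to 100 kb and 42 of 456 beyond. The median log2 difference was 0.14 in distal regions, -0.01 over all tested regions, -0.21 at gene ends and 0.21 in intragenic regions.

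These calls went together with the low share of signal in tested regions of both LT-HSC Npm1 libraries. With that share as a covariate in the fit, 0 of the 178 calls remained (277 at an unadjusted p under 0.05); its part in the calls cannot be told apart from the genotype with these libraries. Without 1 of the 4 libraries compared, 16 or 56 calls were made with WT replicate A or B of LT-HSC left out, and 44 or 20 with Npm1 replicate A or B left out. The MPP3 libraries enter through the shared estimate of spread, and 297 and 295 calls were made without MPP3 Dnmt3a replicate A or B and 107 without either MPP3 Npm1 replicate. The direction moved with the level of the region. The median log2 difference was 0.29 among 2762 regions of mean signal under 200, -0.14 among 804 from 200 to under 400, and -0.41 among 188 above that. The higher calls had a median mean signal of 138 and the lower calls 324.

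**Figure D4:**
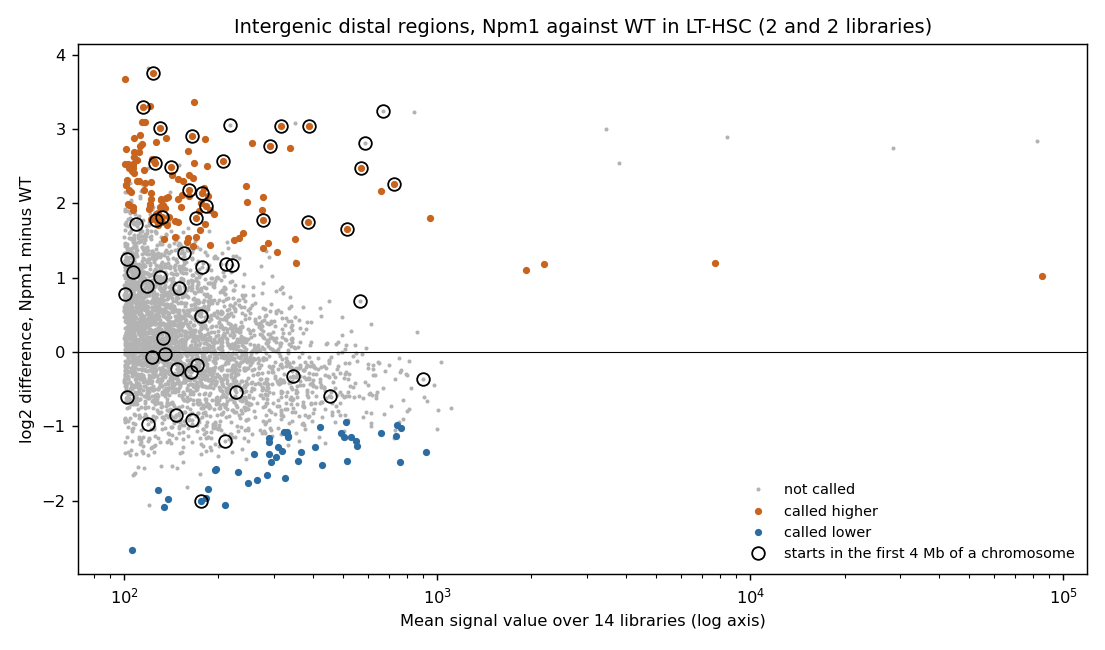
Log2 difference of Npm1 minus WT in LT-HSC (vertical axis, 2 libraries each) against mean signal over 14 libraries (log horizontal axis) for the 3754 intergenic distal regions; orange points were called higher (133), blue lower (45), grey not called, and open circles mark regions that start in the first 4 Mb of a chromosome. Lower calls lie mostly at a higher mean signal, and 21 of the 53 circled regions were called higher.

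Of the 133 higher calls, 21 lay at chromosome starts. Mouse chromosomes have their centromere at the start, beside satellite repeats. Of the 53 distal regions that start in the first 4 Mb of a chromosome, a limit chosen after the values were seen, 22 were called, 1 of them lower, and the median log2 difference was 1.26. The leading call, nearest to the pheromone receptor gene Vmn1r2 at chr4:3079643-3084932, had values of 348 and 248 in WT, 1291 and 1581 in Npm1, 366 in the Dnmt3a library and 584 and 586 in Dnmt3a;Npm1 LT-HSC (log2 difference 2.27, SE 0.30, limma adjusted p = 0.00207). Both Npm1 values lay above every other stem cell value, but MPP3 values reached 1291. It belongs to a run of 9 regions over 41182 bp, of which 7 were called higher. Near Gdi2, which encodes a Rab regulator, the region chr13:3372691-3373812 had 138 and 171 in WT and 1244 and 1341 in Npm1 (log2 difference 3.04, SE 0.47, limma adjusted p = 0.00478). It was called in 19 of 20 other settings, the exception being the covariate. Its Dnmt3a;Npm1 LT-HSC values were 358 and 347. In MPP3 this region had 294 and 87.9 in WT and 748 and 362 in Dnmt3a, whose replicate A also had a low share of signal in tested regions. The Rn18s-rs5 region had 49071 and 50336 in WT and 104406 and 98506 in Npm1 (log2 difference 1.03, SE 0.19, limma adjusted p = 0.0118), and its direction turned when libraries were scaled to their totals (-0.13). Counting without the regions at chromosome starts and the 8 strongest left 153 calls, 109 higher and 44 lower.

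Other higher calls lay away from chromosome starts. Nt5e encodes the surface nucleotidase CD73, and a region 53224 bp upstream had 37.4 and 12.7 in WT and 241 and 149 in Npm1 (log2 difference 2.88, SE 0.53, limma adjusted p = 0.0112). Its values in MPP3 were 129 to 199 (median 164), so LT-HSC WT stood apart from those too. Near Gramd1b, a sterol transport gene, WT had 10.1 and 1.95 and Npm1 84.6 and 152 (log2 difference 3.68, SE 0.68, limma adjusted p = 0.0112). The Dnmt3a;Npm1 libraries had 96.8 and 181, and their own comparison with the same WT libraries gave 3.90 (SE 0.68, limma adjusted p = 0.158). The mean signal of this region was 100.4, just above the limit of 100. WT replicate B lay at the lowest deposited value of its library, 2, and both log2 differences rest on these low WT values. The remaining named calls were near Ide, the insulin-degrading enzyme gene, at 2.86 (SE 0.51), Tmem117 at 2.33 (SE 0.42), Tra2a, a splicing regulator gene, at 2.23 (SE 0.41), the chemokine gene Cxcl14 at 2.60 (SE 0.49) and the peroxisome gene Pex2 at 1.19 (SE 0.22), with adjusted p values of 0.0108 to 0.0121. The Pex2 region, of mean signal 2193, is among the 8 strongest, and its log2 difference ran from 0.03 to 1.94 over 20 other settings. In all of these remaining regions both MPP3 Dnmt3a libraries also lay above both MPP3 WT libraries. Near Tra2a, for example, the values were 622 and 293 against 241 and 118.

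Irf8 encodes the interferon regulatory factor that directs monocyte and dendritic cell fate. A region 49488 bp downstream of it (chr8:120806182-120808535) had values of 63.2 and 112 in LT-HSC WT, 89.3 in the Dnmt3a library, 365 and 386 in Npm1 and 207 and 387 in Dnmt3a;Npm1. The stem cells with the Npm1 allele were all above WT and above all 7 MPP3 libraries, which had 81.7 to 205 (median 103). Npm1 against WT gave 2.10 (SE 0.44, limma adjusted p = 0.0154); Dnmt3a;Npm1 against the same WT libraries gave 1.70 (SE 0.44, limma adjusted p = 0.665). A region 37868 bp upstream of Irf8, nearest to Cox4i1, had 76.4 and 30.2 in LT-HSC WT, 113 and 326 in LT-HSC Npm1 and 166 to 389.7 (median 238) in MPP3, and was called for Npm1 (log2 difference 1.91, SE 0.51, limma adjusted p = 0.0408) and for MPP3 against LT-HSC (log2 difference 1.47, SE 0.29, limma adjusted p = 0.0304), comparisons that share the LT-HSC WT and Npm1 libraries. The other two Irf8 regions did not pass for Npm1, at 1.48 (SE 0.58, limma adjusted p = 0.136) and 1.34 (SE 0.43, limma adjusted p = 0.0729).

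In the gene lists, calls were few, beside 3.54% of all distal and 2.31% of all tested regions called higher. Of the 33 myeloid regions, 2 rose in Npm1, at Irf8 and at Id2 (154619 bp upstream, 109 and 77.9 in WT and 472 and 266 in Npm1; log2 difference 1.90, SE 0.40, limma adjusted p = 0.0151), with a list median of 0.37 against 0.14 for all distal regions. Of the 26 lymphoid regions, 2 rose, near Notch1 (42.5 and 39.9 in WT, 204 and 240.2 in Npm1; log2 difference 2.32, SE 0.55, limma adjusted p = 0.024) and near Foxo1 (42.5 and 30.2 in WT, 184 and 246 in Npm1; log2 difference 2.44, SE 0.51, limma adjusted p = 0.0151), and 1 fell, near Gata3 (log2 difference -1.13, SE 0.31, limma adjusted p = 0.0433), a gene that the stem cell list also holds. The lymphoid median was 0.56. Of the transcription factor regions, Id2 rose and Klf6 fell (331 and 261 in WT and 51.6 and 143 in Npm1; log2 difference -1.72, SE 0.40, limma adjusted p = 0.0225), with a median of 0.04. The stem cell list had a median of -0.20, with Gata3 as its call, and the erythroid and megakaryocyte list a median of -0.15 with no call. Summed signal at MPP3 marker regions was also higher in both LT-HSC Npm1 libraries than in LT-HSC WT, as given above. At the 16 LT-HSC marker regions it was 2975 to 3794 in LT-HSC Npm1 and 3128 to 3431 in LT-HSC WT. Of these 16 regions, 9 were higher in Npm1. At B cell marker regions the summed signal was 1242 to 1278 in LT-HSC Npm1 and 695 to 1223 in LT-HSC WT, and at niche marker regions 763 to 898 and 336 to 760. At the T and NK cell marker region it was 227 to 229 and 346 to 424, and at erythroid marker regions 515 to 582 and 492 to 792. The part of these markers in the differences was not tested.

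The regions that fell in Npm1 LT-HSC were stronger ones. Near Ccnl1, a cyclin gene of RNA processing, values were 483 and 568 in WT and 227 and 154 in Npm1 (log2 difference -1.47, SE 0.30, limma adjusted p = 0.0146). Near Slc2a3, the gene of glucose transporter GLUT3, they were 835 and 999 in WT, then 392 and 326 in Npm1 (log2 difference -1.34, SE 0.28, limma adjusted p = 0.0151). Near Rgs1, a regulator of G protein signalling, they were 205 and 164 in WT, then 22.7 and 71.5 in Npm1 (log2 difference -2.06, SE 0.44, limma adjusted p = 0.0169). In each of these regions, both Npm1 values lay below every other LT-HSC library. The regions of the 2 other lncRNA promoters shown above fell as well. The 1300002E11Rik region near Ehhadh, a peroxisomal enzyme gene, had 372 and 467 in WT, then 90.8 and 174 in Npm1 (log2 difference -1.69, SE 0.35, limma adjusted p = 0.0151), and the 1700113A16Rik region near Mef2d had 513 and 534 in WT, then 212 and 240.2 in Npm1 (log2 difference -1.198, SE 0.26, limma adjusted p = 0.018). The remaining named calls were near Noxa1, an activator of NADPH oxidase (log2 difference -1.52, SE 0.31), Klrb1c, the gene of the natural killer receptor NK1.1 (log2 difference -1.66, SE 0.35), Atp5mpl (log2 difference -1.27, SE 0.27), Plcl2 (log2 difference -1.76, SE 0.39) and Dph5 (log2 difference -1.34, SE 0.30), with adjusted p values from 0.0149 to 0.019.

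Between Myc and the Gsdmc genes, where a cluster of blood enhancers of Myc is known, 3 distal regions lay 1657214 to 1713874 bp from Myc. The strongest (chr15:63647575-63648880) had 425 and 519 in LT-HSC WT, 194 and 189 in Npm1 and 406 and 266 in Dnmt3a;Npm1, and 247 to 407 (median 339) in MPP3. It fell in Npm1 LT-HSC (log2 difference -1.28, SE 0.29, limma adjusted p = 0.0216), with both Npm1 libraries below the other LT-HSC libraries, and the other two regions did not pass.

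One region lies at Mx1, the gene whose promoter drives the Cre of the design. RefSeq annotates Mx1 as a transcribed pseudogene, so its region (chr16:97462728-97465500, nearest to Fam3b) counted as intergenic. Its values were 626 and 1451 in LT-HSC WT, 616 in the Dnmt3a library, 406 and 283 in Npm1 and 920.4 and 699 in Dnmt3a;Npm1. In MPP3 they were 1146 and 446 in WT, 1615 and 983 in the Dnmt3a libraries, 116 and 145 in Npm1 and 729 in the Dnmt3a;Npm1 library. In each cell type the Npm1 libraries were the lowest, below every library of the other genotypes. Npm1 against WT gave -1.48 (SE 0.41, limma adjusted p = 0.0446) in LT-HSC and -2.43 (SE 0.41, limma adjusted p = 0.255) in MPP3. The labels do not say whether Npm1 donors carried Mx-Cre, and whether transgene copies of the Mx1 promoter add to this region was not tested.

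**Figure D5:**
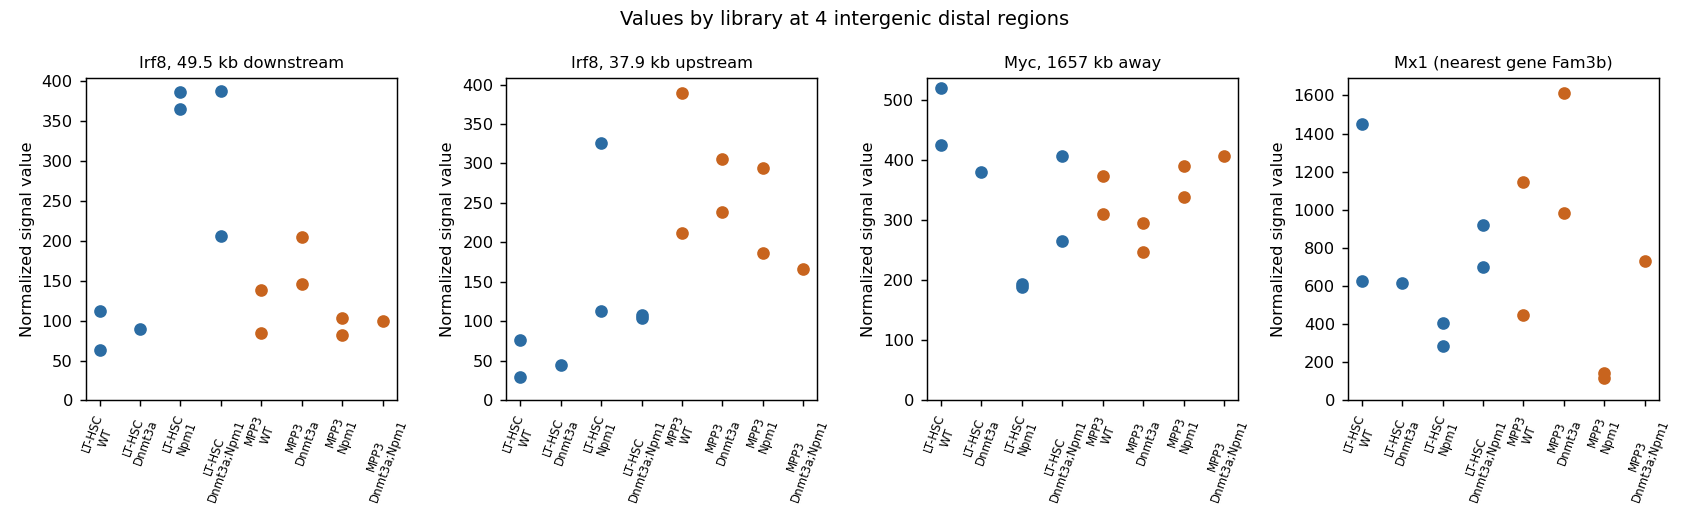
Normalized signal (vertical axes) by group at 4 intergenic distal regions, with each point a library (blue LT-HSC, orange MPP3). The Irf8 region 49488 bp downstream is highest in the LT-HSC groups with the Npm1 allele, the Myc region is lowest in LT-HSC Npm1, and the Mx1 region is lowest in the Npm1 groups of each cell type.

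The other genotype comparisons gave no call among distal regions with limma at an adjusted p under 0.05. Dnmt3a;Npm1 against WT in LT-HSC had 228 regions at an unadjusted p under 0.05 (6.07%, against 5.88% of all tested regions, of which 0.00398% were called). Dnmt3a against WT in LT-HSC, with 1 Dnmt3a library assumed to vary like the other groups, had 64 (1.70%, against 1.33%). In MPP3 the numbers were 2 for Npm1 (0.0533%, against 0.123%), 381 for Dnmt3a (10.1%, against 10.1%) and 12 for Dnmt3a;Npm1, with 1 library (0.320%, against 0.39%). The share of tested regions called was 0% in each of these except the first. The smallest p values, none past the threshold, were near Rab11fip4 in LT-HSC Dnmt3a (log2 difference -3.08, SE 0.80, limma adjusted p = 1), near Gramd1b in LT-HSC Dnmt3a;Npm1 as given above, and near Mcfd2 in MPP3 Dnmt3a, where values were 132 and 212 in WT and 28.6 and 31.6 in Dnmt3a (log2 difference -2.33, SE 0.44, limma adjusted p = 0.147). These comparisons share their WT libraries within a cell type.

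The difference between the Npm1 effect in LT-HSC and that in MPP3 was tested directly as an interaction. No distal region passed limma's adjusted test (0% of all tested), and 335 had an unadjusted p under 0.05 (8.92%, against 12.2%). The region near P4ha2, a collagen prolyl hydroxylase gene, had the smallest p, with 68.3 and 93.5 in WT and 852 and 877.8 in Npm1 LT-HSC. In MPP3 it had 184 and 28.3 in WT and 62.1 and 19.8 in Npm1 (log2 difference 4.34, SE 0.94, limma adjusted p = 0.263). Calls made for Npm1 in LT-HSC are therefore not shown to be particular to stem cells.

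Distal regions often stood in groups. With neighbours at most 25 kb apart they formed 2492 runs, of which 1802 were single regions and 291 held 3 or more. The longest run held 17 regions over 146543 bp nearest to Haao or Zfp36l2, and the next held 11 over 80570 bp on the same side of Zfp36l2, which encodes an RNA-binding protein that limits mRNA lifetime in blood progenitors. No region of either run was called in the 2 comparisons with calls. The strongest, 63614 bp from Zfp36l2 (chr17:84117662-84120310), had 366 to 825 (median 519.8) in LT-HSC and 262 to 747 (median 549) in MPP3. In the run of 17, 11 regions were lower in MPP3 (median -0.08), with the largest difference -0.96. The third run held 10 regions near Irf2bpl and Lrrc74a, with a median of -0.05 for MPP3 against LT-HSC and 1 region called lower in Npm1 LT-HSC.

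MicroRNA genes overlapped 10 distal regions, as given above. The let-7i region had 267 to 433 (median 352) in LT-HSC and 307 to 517 (median 471) in MPP3, with overlapping libraries and no call (log2 difference 0.30, SE 0.16, limma adjusted p = 0.379). The region with the gene of miR-6367 near Ifnar1, an interferon receptor subunit, rose in Npm1 LT-HSC, with 46.5 and 61.4 in WT and 237 and 177 in Npm1 (log2 difference 1.86, SE 0.49, limma adjusted p = 0.0383).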

How the data were processed

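ATAC-seq signal was taken from 1 deposited table of 705361 mm10 regions by 14 libraries. The values the authors deposited are signal, written as whole numbers, but in several libraries the low values skip most integers, so the authors had scaled and rounded reads; they were treated as signal, not counts, and the depth behind each value is unknown. R 3.6.0, DiffBind 2.12.0, edgeR 3.26.4 and HOMER 4.10 are named in the submitters' processing notes without a role; the aligner, peak caller and treatment of problem regions are not given in the sources used here. Library totals of signal were 14683769 to 28748205. 

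Regions with a mean of at least 100 were kept, divided by TMM factors (trims of 30% and 5%) and fitted in limma 3.58.1 (R 4.3.3) as log2(value + 4) with 8 groups, trended and robust; a group's single library was given the spread of the others. Log2 differences understate changes of low regions. Adjusted p is Benjamini-Hochberg over 25129 regions within each of 9 comparisons, two-sided. Alternatives changed the pseudocount, scaling, filter, distance limit and libraries. Tables were made in Python 3.11.15. Genes, promoter windows and microRNAs are RefSeq (GRCm38.p6); a side of a gene is given where the promoter table gives a strand. The replicate letters were not treated as pairing libraries in the main fit. Over 15 pairs of groups the correlation of deviations was -0.25 to 0.42, above 0.1 in 1, which cannot show that libraries are unpaired. With the letter as a block, 22 of the 36 calls for MPP3 against LT-HSC and 161 of the 178 for Npm1 in LT-HSC were kept.

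The regions, the 11 gene lists, the comparisons and the naming rule were chosen with earlier results of these data known. Named regions are the 10 of smallest p per direction (3 for comparisons without calls), 1 per nearest gene, up to 3 per gene list, those nearest to Myc, Irf8, Cebpa, Spi1, Gata2, Meis1 and Nkx2-3, the extremes of level and distance and the 3 longest runs. Regions near the list genes that passed, the region set beside the transgene, distances from Cebpa, Irf8 and Myc regardless of nearest gene, and the printed promoters were chosen after values were seen. Some regions and genes under this rule are not reported here. Motifs in the regions themselves were not searched, since no genome sequence was used here.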

Additional observations from a re-analysis of the deposited data

Results flagged for a closer look

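At the region near Plcl2 (chr17:50469727-50471070), both Npm1 libraries lay on one side of both WT libraries in LT-HSC and on the other side in MPP3. Values were 292 and 195 in WT and 51.6 and 88.6 in Npm1 LT-HSC, where both Npm1 libraries were lower, and 202 and 253 in WT and 267 and 279 in Npm1 MPP3, where both were higher. The interaction was -2.03 (SE 0.55, limma adjusted p = 0.284), so the difference between cell types did not pass the test.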

How the results depend on the processing

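Among the alternatives, a pseudocount of 1 or 16 kept both counts of calls within a factor of 1.5, as did counting without the 8 strongest regions and the chromosome starts (35 and 153, chosen after the data were seen). For MPP3 against LT-HSC over 4 genotypes, 12 distal regions were called among those of mean signal of at least 200, 137 (130 higher) with scaling to library totals against 36 (28 higher), 9 with the share of signal as a covariate, 22 beyond 20 kb and 19 beyond 5 kb of every RefSeq gene. For Npm1 against WT in LT-HSC the counts were 48, 1316 (53 higher, against 133 of 178), 0, 114 and 101, and 54 with cyclic loess. Scaling to totals moved the median of all tested regions to -1.14 for Npm1 in LT-HSC, to 0.21 for MPP3 against LT-HSC and to -0.75 for Dnmt3a in MPP3, and turned the Rn18s-rs5 region near Esp38 to -0.13. It called 8 regions for MPP3 against LT-HSC in WT, 1 for Dnmt3a;Npm1 in LT-HSC and 112 for Dnmt3a in MPP3. With no filter on low values the counts were 3 for MPP3 against LT-HSC in WT, 1 for Dnmt3a;Npm1 in LT-HSC, 1 for Npm1 in MPP3, 12 for Dnmt3a in MPP3 and 15 for the interaction; the covariate gave 1 for Npm1 in MPP3. The cause of these shifts was not tested. Leaving out a library gave 1 to 145 calls for MPP3 against LT-HSC over 4 genotypes, 16 to 297 for Npm1 in LT-HSC, 0 to 2 for MPP3 against LT-HSC in WT, 0 to 19 for Dnmt3a;Npm1 in LT-HSC, 0 to 57 for Dnmt3a in MPP3, 0 to 1 for Npm1 in MPP3 and 0 to 16 for the interaction; without a lone library, comparisons that need it gave no value. With the replicate block the counts were 24 and 166, and 0 in the other comparisons. Settings were run for single regions only for the 10 of smallest p per direction and those nearest to Nkx2-3 and Irf8, and among these Rn18s-rs5 was the 1 whose direction turned. Motif windows of 600 bases were not run. Depth in reads is unknown, so differences of low regions are the least certain.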
